A study of Mus musculus with 12 samples.

Results

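The comparison asks what polyIC added when the antibody to PD-L1 was already given: the 3 combination libraries were set against the 3 antiPDL1 libraries across all genes of the deposited table. Of 24319 entries, 24297 were kept. The other 22 were listed at 0 in a whole group although every library of another group held at least 5 FPKM (fragments per kilobase of transcript, scaled to the mapped fragments of the library). A level of 1 FPKM or more in 3 or more of the 12 libraries was needed for a test, and 11978 of the kept genes had it.

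PolyIC is a synthetic double-stranded RNA that is sensed in endosomes by TLR3 and in the cytosol by MDA5, the product of Ifih1. These sensors induce interferons and activate dendritic cells, macrophages and NK cells. PD-L1, encoded by Cd274, holds T cells back through the receptor PD-1, and antibodies to it release that brake. In the liver, Kupffer cells are the resident macrophages, and dendritic cells carry antigen to T cells.

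All C57BL/6 mice had received c-Myc and N-ras oncogene plasmids on day 0 by hydrodynamic transfection, a rapid large-volume injection that carries DNA into hepatocytes. Combination mice were given polyIC at 4 mg/kg into the peritoneum on days 14, 16, 18, 20 and 22 and 200 µg of PD-L1 antibody on days 17, 19 and 21. Mice of the antiPDL1 group had PBS in place of polyIC and the same antibody. The polyIC group had polyIC with 200 µg of IgG, and control mice had PBS with IgG. The protocol puts euthanasia on day 24, whereas the time point label reads day 22. RNA came from liver cells captured on beads with an antibody to CD45, and RNA of hepatocyte and endothelial markers was present too. The values therefore describe a mixture of cells in which fewer cells of a type and less RNA per cell cannot be told apart. Replicates are numbered 0, 1 and 2, and values below are given in that order. The labels do not say whether they came from separate mice, so p-values measure only the spread between these libraries.

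Summed FPKM ranged between 624568 and 674810 in combination libraries and between 489591 and 650819 in antiPDL1 libraries. Read counts are not in the table, and relative depth, estimated from the steps between low values, was 0.638 to 1 in combination libraries and 0.466 to 0.764 in antiPDL1 libraries. The small RNA gene Mir6236 took 16.2 to 20.6% of the FPKM in combination libraries and 7.59 to 11.1% in antiPDL1 libraries, and its part in the results was tested only by leaving small RNA genes out. Ptprc, the gene of CD45, was present at 381, 480 and 487 FPKM in combination libraries and 340, 327 and 268 FPKM in antiPDL1 libraries. The antiPDL1 libraries differed among themselves. By mean correlation of log2 values, antiPDL1 replicate 0 was closer to the combination libraries (0.961) than to its own group (0.942), and antiPDL1 replicate 2 was closer to the control libraries (0.952) than to its own group (0.928). On the first principal component, which held 44.8% of the variance, combination libraries lay between 41.2 and 55.2 and the antiPDL1 libraries at 26.5, 10.4 and -38.1.

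Adding polyIC to the antibody changed 15 genes at a Benjamini-Hochberg adjusted p under 0.05 in limma, which is 0.125% of the genes tested. None passed when only the 6 libraries of both groups were in the fit (limma, 1779 genes at an unadjusted p under 0.05), and with a pseudocount of 0.1 the fit of all libraries kept 8 of the 15. Of the 15 genes, 12 were higher in combination libraries (0.1%) and 3 were lower (0.0250%). The genes that rose were led by the cytokines Il10 and Il21 and the hormone precursor Gcg. Those that fell were Cd207, Ccl17 and Mgl2, which are known from dendritic cells and macrophages. The groups did not overlap for any of the 15, a condition that 8.29% of all tested genes met upward and 12.1% downward. At an unadjusted p under 0.05, 756 genes were higher (6.31%) and 969 lower (8.09%), and 102 genes had an adjusted p between 0.05 and 0.1. Differences are given as log2(FPKM + 1) of combination minus antiPDL1, a scale that understates changes of genes near 1 FPKM. The median difference over all tested genes was 0.04, and 55.6% of them lay above 0.

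The number of genes that passed depended on single libraries. No gene passed without antiPDL1 replicate 2 (1133 genes at an unadjusted p under 0.05) or without combination replicate 1 (920 genes), and 1 passed without combination replicate 2. Without antiPDL1 replicate 0, 331 genes passed, and without control replicate 2, which enters only through the shared estimate of spread, 276 passed. Leaving out any other library left 5 to 10 genes. All 15 genes passed without antiPDL1 replicate 0, and all 15 kept their sign in every fit with a library left out. With small RNA genes left out and libraries rescaled to one total, 77 genes passed, the 15 among them.

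**Figure D1:**
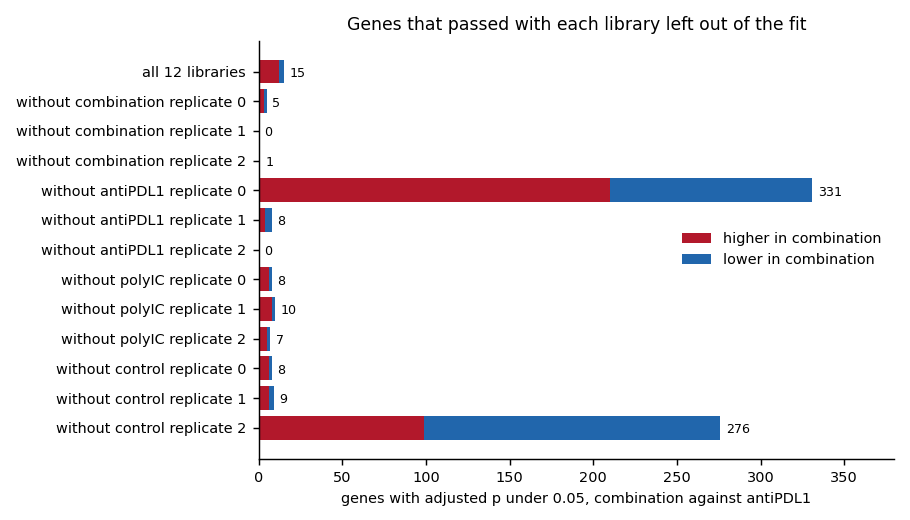
Number of genes with an adjusted p under 0.05 in combination against antiPDL1 (horizontal axis), in the fit of all 12 libraries and with each library left out in turn (vertical axis); red bars are genes higher and blue bars genes lower in combination libraries. The count is 15 with all libraries, 331 without antiPDL1 replicate 0, 276 without control replicate 2, and 0 without antiPDL1 replicate 2 or combination replicate 1.

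Among secreted signals, Gcg had the largest rise of the named genes that passed. It encodes proglucagon, the precursor of glucagon and GLP-1, and is usually made in the pancreatic islet and the gut. Gcg was at 46.4, 115 and 59.6 FPKM in combination libraries, against 5.32, 0.557 and 0.778 FPKM in antiPDL1 libraries, a log2 difference of 4.74 ± 0.561 (SE; limma, adjusted p = 0.0108). The lowest combination library was above the highest antiPDL1 library, which was replicate 0. In polyIC libraries Gcg was at 6.45, 7.35 and 3.37 FPKM, and in control libraries at 0.0603, 1.89 and 0.177 FPKM, so the combination stood above all the other groups. The islet and gut hormone genes Ins1, Ins2, Iapp, Pyy, Ppy and Sst, looked up after the values of Gcg were seen, were listed at 0 in all 12 libraries. Chga and Cck were looked up at the same time, and their values are not given here. Glp1r, the receptor of GLP-1, was at 6.06, 2.17 and 4.51 FPKM in combination libraries and 3.67, 0.0386 and 0.286 FPKM in antiPDL1 libraries. Its groups overlapped and it did not pass (limma, adjusted p = 0.236).

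Il10 encodes a cytokine that restrains inflammation and is made by regulatory and activated T cells and by myeloid cells. It was at 30.9, 79.2 and 42.6 FPKM in combination libraries and 8.24, 2.16 and 2.44 FPKM in antiPDL1 libraries, a log2 difference of 3.37 ± 0.502 (limma, adjusted p = 0.0348). Il21, a cytokine of activated CD4 T cells that acts on B cells and CD8 T cells, was at 9.96, 24.2 and 19.9 FPKM in combination libraries and 2.88, 1.27 and 1.53 FPKM in antiPDL1 libraries. Its log2 difference was 2.67 ± 0.320 (limma, adjusted p = 0.0108). Both cytokine genes were also higher in every combination library than in any polyIC library, where Il10 reached at most 8.05 FPKM and Il21 at most 2.95 FPKM.

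Angptl2, which encodes a secreted angiopoietin-like protein, was at 7.29, 10.5 and 7.19 FPKM in combination libraries and 1.53, 0.930 and 1.25 FPKM in antiPDL1 libraries. Its adjusted p was the smallest of all genes tested here (log2 difference 2.05 ± 0.210; limma, adjusted p = 0.00914). Angptl2 averaged 2.08 ± 0.162 FPKM in polyIC libraries and 1.17 ± 0.544 FPKM in control libraries (SD, n = 3 each). Twsg1, a secreted protein that binds bone morphogenetic proteins, was at 33.2, 33.4 and 33.4 FPKM in combination libraries and 14.6, 10.6 and 10.6 FPKM in antiPDL1 libraries (log2 difference 1.43 ± 0.188; limma, adjusted p = 0.0159). Itih5, an inter-alpha-trypsin inhibitor heavy chain that binds hyaluronan, was at 6.44, 6.00 and 6.33 FPKM in combination libraries and 1.76, 2.06 and 2.21 FPKM in antiPDL1 libraries (log2 difference 1.27 ± 0.184; limma, adjusted p = 0.0339). For Itih5 the polyIC libraries, at 8.82, 6.04 and 7.08 FPKM, were as high as the combination libraries.

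The other named genes that rose were low. Ociad2 averaged 5.66 ± 0.315 FPKM in combination libraries and 1.00 ± 0.535 FPKM in antiPDL1 libraries. Wscd2 averaged 4.07 ± 0.826 FPKM in combination libraries and 0.774 ± 0.597 FPKM in antiPDL1 libraries. Gng3, a G protein gamma subunit, averaged 2.86 ± 0.230 FPKM in combination libraries and 0.610 ± 0.507 FPKM in antiPDL1 libraries. The last of this group, Fam81a, averaged 1.16 ± 0.156 FPKM in combination libraries and 0.206 ± 0.0716 FPKM in antiPDL1 libraries (SD, n = 3 each). Their log2 differences lay between 0.84 for Fam81a and 1.77 for Ociad2, with limma adjusted p-values of 0.0474 for Fam81a, 0.0113 for Ociad2, 0.0499 for Wscd2 and 0.0423 for Gng3. No antiPDL1 library reached 1 FPKM for Fam81a, so of the groups compared only combination libraries could count toward its filter. The call of Fam81a is therefore a description. The remaining pair that rose, Gm4841 (log2 difference 1.39) and D630039A03Rik (0.91), are predicted or uncharacterised genes and are described no further.

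The 3 genes that fell encode surface lectins and a chemokine. Cd207, or langerin, is the lectin of Langerhans cells and of some other dendritic cells. It was at 2.95, 1.22 and 3.91 FPKM in combination libraries and 30.9, 36.3 and 68.0 FPKM in antiPDL1 libraries (log2 difference -3.63 ± 0.478; limma, adjusted p = 0.0159). Ccl17, a chemokine that attracts CCR4-bearing T cells, was at 1.46, 0.270 and 0.898 FPKM in combination libraries and 13.1, 11.9 and 8.76 FPKM in antiPDL1 libraries (log2 difference -2.74 ± 0.327; limma, adjusted p = 0.0108). Mgl2, or CD301b, is a lectin of dendritic cells and macrophages. It was at 0.844, 0.348 and 0.694 FPKM in combination libraries and 2.64, 7.83 and 7.31 FPKM in antiPDL1 libraries (log2 difference -2.0 ± 0.307; limma, adjusted p = 0.0423). No combination library reached 1 FPKM for Mgl2, so of the groups compared only antiPDL1 libraries could count toward its filter. The call of Mgl2 is therefore a description. By the ratio of group means, the antiPDL1 level was 16.7 times the combination level for Cd207, 12.8 times for Ccl17 and 9.42 times for Mgl2.

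**Figure D2:**
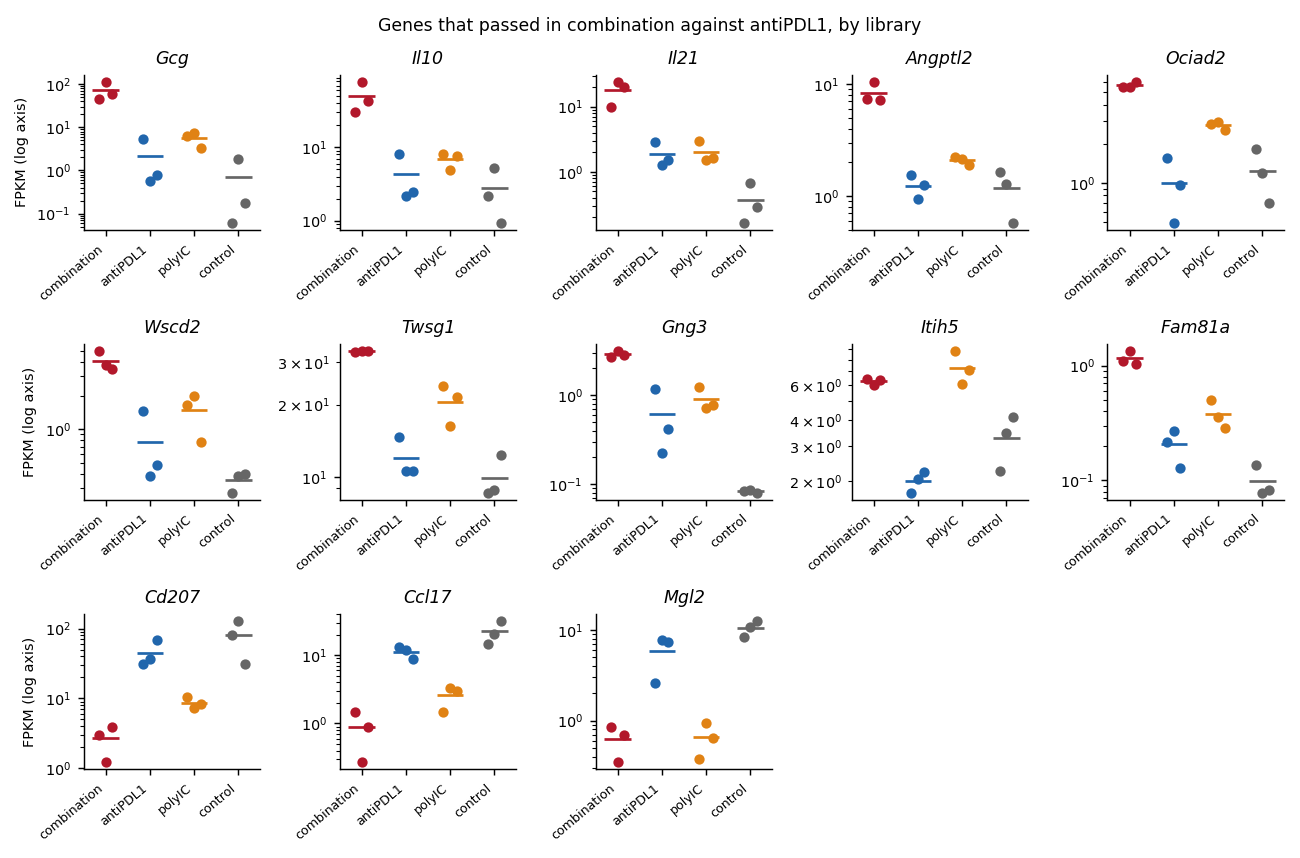
FPKM (log axis) of the 13 named genes that passed in combination against antiPDL1, with 1 point per library and a horizontal line at the mean of the 3 libraries of a group; groups run combination, antiPDL1, polyIC and control. Combination and antiPDL1 points do not overlap in any panel, and for Cd207, Ccl17 and Mgl2 the polyIC libraries lie below the control libraries as the combination libraries lie below the antiPDL1 libraries.

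The calls rested on different numbers of libraries. Angptl2 passed in 10 of the 12 fits with a library left out, and Gcg, Il21 and Ccl17 in 9. Ociad2 passed in 8, Twsg1 and Cd207 in 7, Itih5 in 5 and Il10 in 3, while Wscd2, Gng3, Fam81a and Mgl2 passed in 2. Without antiPDL1 replicate 2 the adjusted p was 0.0604 for Angptl2 and Ccl17, 0.0664 for Gcg, Il21 and Ociad2, 0.0759 for Twsg1 and Cd207, 0.0868 for Itih5, 0.180 for Il10, Gng3, Fam81a and Mgl2 and 0.182 for Wscd2 (limma). Their log2 differences in that fit stayed close to those above, at 4.46 for Gcg, 3.15 for Il10 and -3.30 for Cd207.

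Promoters of the 3 fallen genes and of Il21, the risen cytokine gene with an entry in the table used, are shown because the fallen genes moved together. They are 300 bases of RefSeq GRCm38.p6, 250 before and 50 after the start, 5′ to 3′ on the strand of the gene: Cd207 at chr6:83677808-83678107 on the minus strand, Ccl17 at chr8:94810203-94810502 on the plus strand, Mgl2 at chr11:70130107-70130406 on the plus strand and Il21 at chr3:37232587-37232886 on the minus strand. Capitals mark matches, on either strand, to the GAGGAA motif of the ETS factor PU.1 or to the palindromic motif TTCNNNGAA, which do not overlap in these windows. The third motif searched was the interferon-stimulated response element, named ISRE.
Cd207: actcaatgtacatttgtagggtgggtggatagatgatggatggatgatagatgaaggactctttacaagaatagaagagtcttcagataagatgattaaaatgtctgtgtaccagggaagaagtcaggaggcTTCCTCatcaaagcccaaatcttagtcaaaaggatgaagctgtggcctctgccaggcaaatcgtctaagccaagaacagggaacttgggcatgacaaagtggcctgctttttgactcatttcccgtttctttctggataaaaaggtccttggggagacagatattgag
Ccl17: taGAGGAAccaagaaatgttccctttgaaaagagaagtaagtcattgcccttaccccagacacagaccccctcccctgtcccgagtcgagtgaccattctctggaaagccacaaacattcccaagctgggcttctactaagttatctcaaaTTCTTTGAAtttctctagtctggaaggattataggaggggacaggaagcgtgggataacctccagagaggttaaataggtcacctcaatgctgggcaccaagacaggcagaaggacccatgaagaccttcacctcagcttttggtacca
Mgl2: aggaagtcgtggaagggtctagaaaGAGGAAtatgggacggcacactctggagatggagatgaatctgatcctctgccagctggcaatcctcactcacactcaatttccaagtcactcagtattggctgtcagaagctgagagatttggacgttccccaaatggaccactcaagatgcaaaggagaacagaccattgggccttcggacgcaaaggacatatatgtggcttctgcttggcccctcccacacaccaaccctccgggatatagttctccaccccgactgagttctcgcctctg
Il21: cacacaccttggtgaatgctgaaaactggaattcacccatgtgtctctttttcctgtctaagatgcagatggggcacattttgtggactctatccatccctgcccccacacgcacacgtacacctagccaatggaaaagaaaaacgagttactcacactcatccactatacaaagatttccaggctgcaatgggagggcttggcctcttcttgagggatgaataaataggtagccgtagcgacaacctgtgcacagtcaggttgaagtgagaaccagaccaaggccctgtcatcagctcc
GAGGAA was in the window of 3 of 3 fallen genes, 1 of the 9 risen genes with an entry, and 27.6% of the 9419 tested genes with one. TTCNNNGAA was in that of Ccl17 alone among the fallen genes, in 0 of the 9 risen genes and in 7.09% of all, and the ISRE was in none of the fallen or risen genes and in 3.39% of all. A match of this length is a description of letters and not evidence of a bound factor.

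The same agent was also given without the antibody, and the libraries of that comparison, polyIC against control, are not shared with combination against antiPDL1. There 435 genes passed, 295 higher (2.46%) and 140 lower (1.17%), 3.63% in all. Leaving out a library moved that count between 42, without polyIC replicate 0, and 1871, without control replicate 2. Control replicate 2 was closer by mean correlation to the polyIC libraries (0.935) and the antiPDL1 libraries (0.932) than to its own group (0.922). Of the 15 genes above, 7 passed there too: Ccl17, Cd207, Mgl2, Twsg1, Itih5, Gm4841 and D630039A03Rik. All 15 had the same sign. Cd207 was at 10.3, 7.19 and 8.29 FPKM in polyIC libraries and 80.9, 130 and 30.6 FPKM in control libraries (log2 difference -2.87; limma, adjusted p = 0.0125). Ccl17 was at 1.45, 3.31 and 2.99 FPKM in polyIC libraries and 14.4, 20.8 and 32.2 FPKM in control libraries (log2 difference -2.68; limma, adjusted p = 0.00398). Mgl2 was at 0.379, 0.943 and 0.647 FPKM in polyIC libraries and 8.44, 10.7 and 12.7 FPKM in control libraries (log2 difference -2.81; limma, adjusted p = 0.003). Thus all 3 lectin and chemokine genes passed as lower with polyIC whether or not the antibody was given. For Mgl2 this is a description in both comparisons, since no polyIC library reached 1 FPKM either.

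Gcg, Il10, Il21, Angptl2, Ociad2, Wscd2, Gng3 and Fam81a did not pass in polyIC against control. Their log2 differences there were 2.08 for Gcg, 1.2 for Il10, 1.13 for Il21 and 0.54 for Angptl2. The interaction, which is the effect of polyIC with the antibody minus its effect without it, was 2.66 for Gcg, 2.17 for Il10, 1.54 for Il21 and 1.51 for Angptl2. The interaction was past its threshold for 2 of all tested genes (0.0167%), and at an unadjusted p under 0.05 for 2.40%, higher for 0.893% and lower for 1.51%. None of the 15 genes passed its test (limma, adjusted p 0.653 for Angptl2, the lowest of the 15, to 0.999). A difference in the effect of polyIC on these genes between mice with and without the antibody was therefore not shown. Of the 12 risen genes, 10 were higher in every combination library than in any antiPDL1, polyIC or control library. These genes were selected for high values in the same combination libraries, and the share over all tested genes was not computed. The count is therefore a description and no test of an effect particular to the combination. Across the 11978 tested genes, which are not independent replicates, the log2 differences of both comparisons correlated with Pearson's r = 0.628 and Spearman's rho = 0.734, given as a description.

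**Figure D3:**
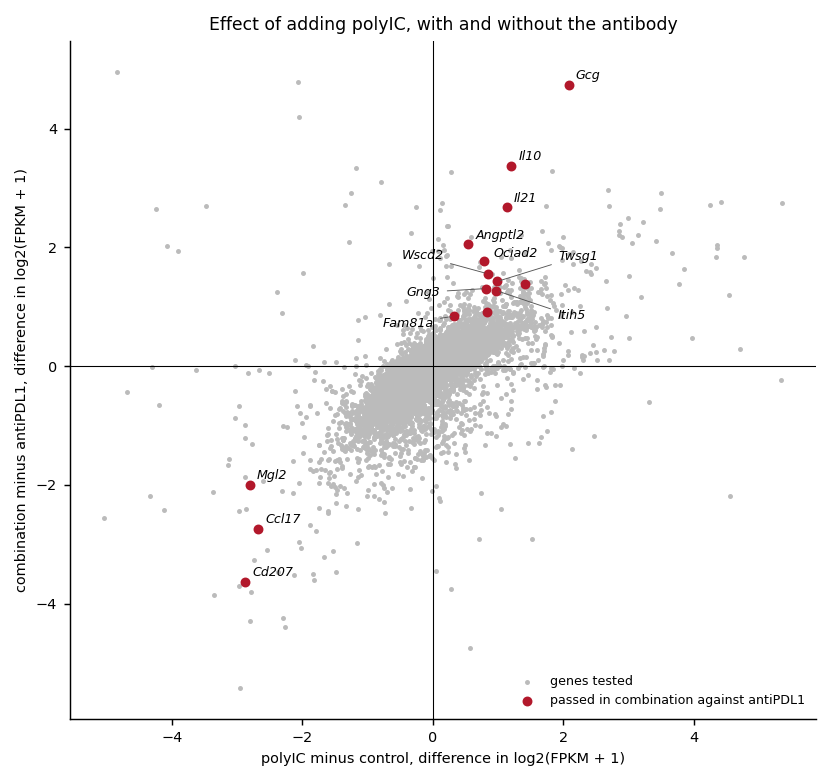
Difference in log2(FPKM + 1) of combination minus antiPDL1 (vertical axis) against that of polyIC minus control (horizontal axis) for the 11978 tested genes (grey); red points are the 15 genes that passed in combination against antiPDL1, with 13 of them named. All 15 lie in the upper right or lower left quadrant, and Gcg, at 4.74 against 2.08, lies farthest of the 15 from the origin.

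Of the T cell markers, 0 of 18 were past the adjusted threshold (0.1% of all genes passed upward) and all 18 were higher at an unadjusted p under 0.05, against 6.31% of all genes. Their median log2 difference was 1.26, and 14 of 18 did not overlap between the groups, against 8.29% of all genes. The summed level of the list was 3298, 3799 and 2895 FPKM in combination libraries and 2296, 1174 and 961 FPKM in antiPDL1 libraries. The antiPDL1 library nearest to the combination was replicate 0. Without it the median was 1.68 and 11 of the 18 passed, against 331 of all 11978 tested genes. Without antiPDL1 replicate 2 the median was 0.98 and none passed, as for all genes in that fit. Cd3g, a chain of the T cell receptor complex, was at 588, 654 and 594 FPKM in combination libraries and 399, 189 and 169 FPKM in antiPDL1 libraries (log2 difference 1.38 ± 0.403; limma, adjusted p = 0.174). Cd3d, another chain, was at 340, 473 and 366 FPKM in combination libraries and 315, 125 and 99.8 FPKM in antiPDL1 libraries. In polyIC against control the median of the list was 1.40, and 6 of 18 passed, all higher, against 2.46% of all genes there.

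CD8 and cytotoxic effector genes had a median log2 difference of 1.44, with 3 of the 22 below 0. None of the 22 passed, 15 were higher at an unadjusted p under 0.05 (6.31% of all genes) and the same number did not overlap upward (8.29% of all genes). Without antiPDL1 replicate 0 the median was 1.98 and 12 passed, against 331 of all 11978 tested genes. Without replicate 1 or replicate 2 it was 1.29 or 1.07 and 0 passed, against 8 and 0 of all genes. Ifng, the cytokine gene of effector T cells and NK cells, was at 82.6, 151 and 135 FPKM in combination libraries and 37.8, 37.2 and 19.1 FPKM in antiPDL1 libraries (log2 difference 1.95 ± 0.339; limma, adjusted p = 0.0568). Prf1, which encodes the pore-forming perforin, was at 134, 127 and 123 FPKM in combination libraries and 54.2, 38.6 and 18.2 FPKM in antiPDL1 libraries (log2 difference 1.89 ± 0.375; limma, adjusted p = 0.0721). Both fell short of the threshold although no libraries overlapped. Gzmb, a granzyme, was at 864, 1587 and 1036 FPKM in combination libraries and 530, 321 and 102 FPKM in antiPDL1 libraries (limma, adjusted p = 0.127). Gzmk was at 487, 628 and 465 FPKM in combination libraries and 329, 32.3 and 40.6 FPKM in antiPDL1 libraries (limma, adjusted p = 0.142). Cd8a, the CD8 coreceptor chain, was at 200, 183 and 168 FPKM in combination libraries and 177, 37.8 and 38.4 FPKM in antiPDL1 libraries, so antiPDL1 replicate 0 lay within the combination range. In polyIC against control, 14 of the 22 genes passed, all higher, against 2.46% of all genes there, with a median of 2.15.

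Cd4, the coreceptor of helper and regulatory T cells, which some macrophages and dendritic cells also carry, was at 83.4, 127 and 89.0 FPKM in combination libraries and 43.1, 35.3 and 44.2 FPKM in antiPDL1 libraries (log2 difference 1.25 ± 0.269; limma, adjusted p = 0.0841). In polyIC libraries Cd4 was at 39.8, 40.2 and 36.9 FPKM, and in control libraries at 26.1, 42.5 and 61.8 FPKM, a log2 difference of -0.07. The interaction for Cd4 was 1.32 (unadjusted p = 0.00508; limma, adjusted p = 0.999). Foxp3, the transcription factor of regulatory T cells, was at 14.4, 5.34 and 8.50 FPKM in combination libraries and 4.77, 2.24 and 3.32 FPKM in antiPDL1 libraries (limma, adjusted p = 0.168). Among 12 tested regulatory T cell markers, Il10 was the only gene that passed and the median was 1.29. At an unadjusted p under 0.05, 8 were higher, against 6.31% of all genes. Without antiPDL1 replicate 0, 6 of the 12 passed, against 331 of all 11978 tested genes. None of the 12 did without replicate 1 or 2, where 8 and 0 of all genes passed.

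Of the inhibitory receptor genes 0 of 13 passed, 10 were higher at an unadjusted p under 0.05 (6.31% of all genes) and 2 lay below 0, with a median of 1.24. Tigit, a receptor of T cells and NK cells, was at 361, 288 and 222 FPKM in combination libraries and 150, 18.3 and 31.6 FPKM in antiPDL1 libraries (log2 difference 2.65 ± 0.614; limma, adjusted p = 0.105). Lag3, which binds MHC class II and was named after its values were seen, was at 295, 295 and 206 FPKM in combination libraries and 111, 21.5 and 25.5 FPKM in antiPDL1 libraries (log2 difference 2.70 ± 0.522; limma, adjusted p = 0.0717). Pdcd1, the gene of PD-1, was at 204, 267 and 188 FPKM in combination libraries and 153, 13.2 and 15.6 FPKM in antiPDL1 libraries (limma, adjusted p = 0.162). In each of these genes antiPDL1 replicate 0 lay well above the other antiPDL1 libraries. Without it 9 of the 13 genes passed, against 331 of all 11978 tested genes. Without replicate 1 or replicate 2, 0 of the 13 passed, against 8 and 0 of all genes, with medians of 0.98 and 1.08. Cd274, the gene of PD-L1 itself, was at 31.3, 42.8 and 38.1 FPKM in combination libraries and 56.8, 61.6 and 20.5 FPKM in antiPDL1 libraries, with overlapping groups. Its log2 difference was -0.16, with a 95% interval of -0.94 to 0.61.

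No NK cell marker stood out between combination and antiPDL1 libraries: 0 of 18 passed in limma, 0 reached an unadjusted p under 0.05 and the median was 0.04, which was -0.35 without antiPDL1 replicate 0. Their summed level was 207, 161 and 370 FPKM in combination libraries and 135, 337 and 273 FPKM in antiPDL1 libraries. Without the antibody it was 561, 1009 and 905 FPKM in polyIC libraries and 151, 210 and 365 FPKM in control libraries. In that comparison 8 of 18 markers passed, all higher, against 2.46% of all genes, with a median of 1.70. Ncr1, the NK receptor NKp46, was at 19.5, 11.3 and 40.9 FPKM in combination libraries and 12.3, 48.4 and 32.7 FPKM in antiPDL1 libraries. It was at 73.0, 145 and 106 FPKM in polyIC libraries and 22.3, 29.5 and 42.8 FPKM in control libraries. The interaction was below 0 at an unadjusted p under 0.05 for 14 of the 18 markers, against 1.51% of all genes, with a median of -1.50, and none passed after adjustment (0.00835% of all genes passed downward). For Ncr1 it was -2.09 (unadjusted p = 0.0153; limma, adjusted p = 0.999). Klrb1c, the NK1.1 antigen, was at 25.5, 14.9 and 40.3 FPKM in combination libraries and 18.6, 40.4 and 39.2 FPKM in antiPDL1 libraries.

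**Figure D4:**
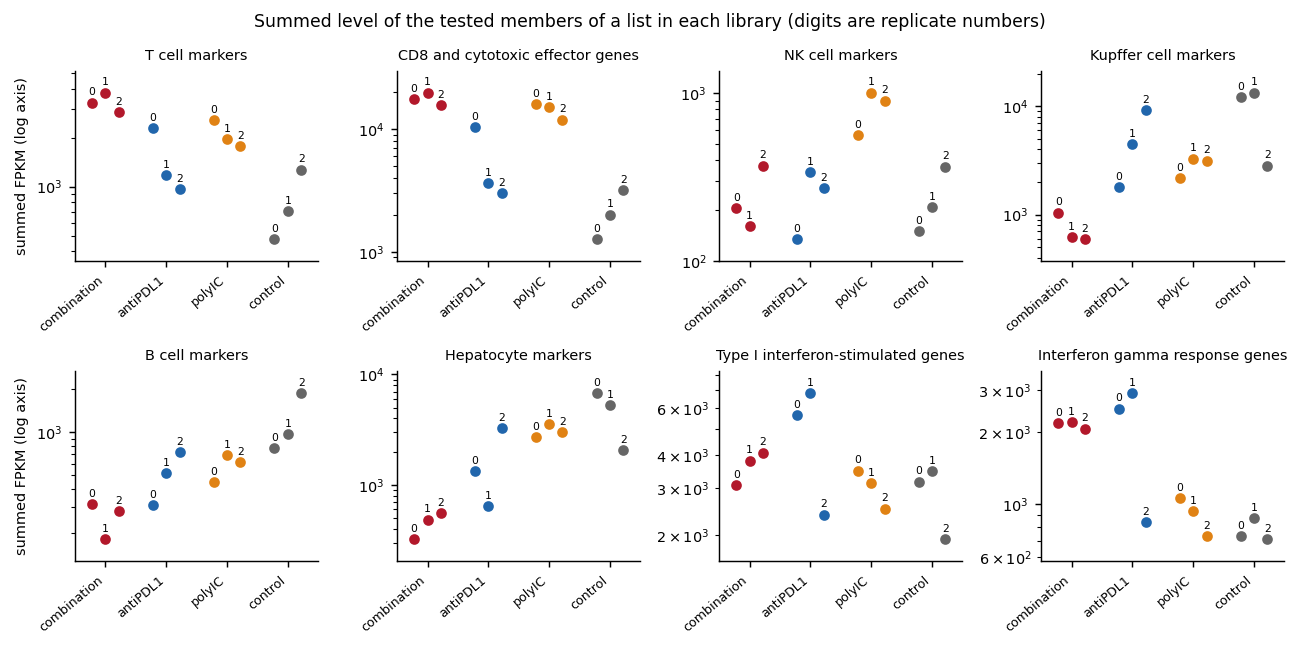
Summed FPKM (log axis) of the tested members of 8 lists, with 1 point per library labelled by its replicate number; groups run combination, antiPDL1, polyIC and control. T cell and cytotoxic sums are higher, and Kupffer and hepatocyte sums lower, in all 3 combination libraries than in any antiPDL1 library, while NK cell sums overlap between these groups and lie higher in the polyIC libraries.

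Kupffer cell genes had the lowest median of all lists with at least 5 tested genes, a log2 difference of -2.65. None of the 18 passed (0.0250% of all genes passed downward), 15 were lower at an unadjusted p under 0.05 (8.09% of all genes) and 14 did not overlap (12.1% of all genes). Their summed level was 1043, 621 and 595 FPKM in combination libraries and 1809, 4449 and 9287 FPKM in antiPDL1 libraries. Clec4f, a lectin found on Kupffer cells, was at 39.5, 5.22 and 25 FPKM in combination libraries and 291, 949 and 1835 FPKM in antiPDL1 libraries (log2 difference -5.41 ± 0.938; limma, adjusted p = 0.0568). Vsig4, a complement receptor, was at 30.4, 7.91 and 20.1 FPKM in combination libraries and 113, 333 and 1436 FPKM in antiPDL1 libraries (log2 difference -4.39 ± 0.888; limma, adjusted p = 0.0740). Slc40a1, the iron exporter ferroportin, was at 173, 84.7 and 97.5 FPKM in combination libraries and 247, 520 and 1201 FPKM in antiPDL1 libraries (limma, adjusted p = 0.152). In all 3 genes antiPDL1 replicate 2 was the highest library and replicate 0 the lowest of its group. Without antiPDL1 replicate 0, 12 of the 18 passed with a list median of -3.40, against 331 of all 11978 tested genes. Without replicate 2 none passed, as for all genes in that fit, and the median was -2.13. Cd5l of this list and Apoe of the macrophage list were left out because they are listed at 0 in control libraries, and they count in none of these results. Timd4, Folr2 and C6, chosen after their values were seen, had log2 differences of -4.24, -3.60 and -4.29 (limma, adjusted p 0.0717 for Timd4 and Folr2 and 0.0841 for C6). In polyIC against control the median of the list was -1.13, with 0 of 18 passing and 8 lower at an unadjusted p under 0.05, against 11.2% of all genes. The control libraries differed there, with sums of 12240.4, 13432 and 2844 FPKM.

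General macrophage genes had a median of -1.23, with 0 of 13 passing and 7 lower at an unadjusted p under 0.05, against 8.09% of all genes. C1qa, a subunit of complement C1q, was at 722, 522 and 364 FPKM in combination libraries and 753, 1734 and 1758 FPKM in antiPDL1 libraries. Adgre1, the macrophage antigen F4/80, was at 134, 88.9 and 69.0 FPKM in combination libraries and 123, 267 and 434 FPKM in antiPDL1 libraries. Replicate 0 was the lowest antiPDL1 library for both genes, and for Adgre1 it lay within the combination range. Complement genes as a list had a median of -1.14, with 0 of 14 passing and 8 lower at an unadjusted p under 0.05, against 8.09% of all genes. Heme and iron handling genes had a median of -0.56 with 0 of 15 passing, and LXR and cholesterol efflux genes one of -0.68 with 0 of 9 passing. By the same unadjusted threshold, 5 heme and 3 LXR genes were lower. Lipid-associated and suppressive macrophage genes had a median of -0.30 (0 of 12 passing, 4 lower by the unadjusted threshold), which was 0.02 without antiPDL1 replicate 0.

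Conventional dendritic cell markers included Ccl17 and Mgl2, the only 2 of 18 that passed, with the call of Mgl2 a description. Without antiPDL1 replicate 2 none of the 18 passed, as for all genes in that fit. All 18 had a log2 difference below 0, whereas 55.6% of all genes lay above 0, and the median was -0.64. At an unadjusted p under 0.05, 8 of the 18 were lower, against 8.09% of all genes. Ccl22, the other ligand of CCR4, chosen after its values were seen, was at 7.62, 1.01 and 4.90 FPKM in combination libraries and 24.2, 23.2 and 25.6 FPKM in antiPDL1 libraries (log2 difference -2.44 ± 0.475; limma, adjusted p = 0.0718). Clec9a and Xcr1, markers of the cross-presenting subset named after their values were seen, had log2 differences of -0.76 and -0.45 with overlapping groups (limma, adjusted p 0.324 for Clec9a and 0.608 for Xcr1). In polyIC against control 6 of the 18 passed, all lower, against 1.17% of all genes there, with a median of -0.81. For plasmacytoid dendritic cells 0 of 14 markers passed, at a median of -0.61 that was -0.31 without antiPDL1 replicate 2. MHC class II pathway genes, at a median of -0.47, also gave 0 of 9, and without antiPDL1 replicate 1 or 2 the median was -0.20 or -0.75. H2-Aa, a class II chain, was at 5766, 3011 and 4138 FPKM in combination libraries and 6909, 7086 and 4419 FPKM in antiPDL1 libraries.

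For B cells 0 of 16 markers passed, and 11 were lower at an unadjusted p under 0.05, against 8.09% of all genes. Their median was -1.06, which was -0.71 without antiPDL1 replicate 2. Without replicate 0 it was -1.45, with 2 passing, against 331 of all 11978 tested genes. Cd79b, a chain of the B cell receptor complex, was at 70.4, 34.5 and 61.8 FPKM in combination libraries and 77.9, 138 and 166 FPKM in antiPDL1 libraries. The median in polyIC against control was -1.0, with 0 of 16 passing.

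RNA of other liver cells moved with these lists. All 26 hepatocyte markers had a log2 difference below 0, whereas 55.6% of all genes lay above 0. Their median was -1.53, with 0 passing and 18 lower at an unadjusted p under 0.05, against 8.09% of all genes. The median was -0.89 without antiPDL1 replicate 2 and -2.11 without replicate 1. Their summed level was 321 to 555 FPKM in combination libraries and 646 to 3286 FPKM in antiPDL1 libraries, and no marker was at 0. Alb, the albumin gene, was at 77.4, 121 and 144 FPKM in combination libraries and 276, 124 and 1000.3 FPKM in antiPDL1 libraries. For sinusoidal endothelial cells 0 of 17 markers passed and the median was -1.0. At an unadjusted p under 0.05, 9 were lower, against 8.09% of all genes. The sums of the endothelial markers were 222 to 346 FPKM in combination libraries and 448 to 482 FPKM in antiPDL1 libraries. The part of these cells in the values of the Kupffer and macrophage genes was not tested. In polyIC against control the hepatocyte median was -0.19 and the Kupffer median -1.13. By summed level, replicate 2 was lowest among control libraries and highest among antiPDL1 libraries for both the hepatocyte and the Kupffer list. In polyIC libraries the sums of the lists ran in the same order, and in combination libraries in the opposite order. Their relation was not tested.

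Of 31 type I interferon-stimulated genes, 0 passed and 5 were lower at an unadjusted p under 0.05, against 8.09% of all genes. A log2 difference below 0 was seen in 29, whereas 55.6% of all genes lay above 0, and the median was -0.32. Isg15, an antiviral ubiquitin-like protein, was at 130, 187 and 215 FPKM in combination libraries and 330, 382 and 44.4 FPKM in antiPDL1 libraries. Ifit1, an antiviral RNA-binding protein, was at 20.0, 22.3 and 26.1 FPKM in combination libraries and 35.9, 44.2 and 11.5 FPKM in antiPDL1 libraries. Each combination library lay between the low antiPDL1 replicate 2 and the other antiPDL1 libraries, and the list median was -0.75 without that replicate and -0.10 without replicate 1. Interferon gamma response genes had a median of 0.20 with 0 of 21 passing and 18 above 0, against 55.6% of all genes. That median was -0.33 without antiPDL1 replicate 2 and 0.51 without replicate 1. Cxcl9, a chemokine induced by interferon gamma, was at 261, 181 and 203 FPKM in combination libraries and 375, 156 and 61.5 FPKM in antiPDL1 libraries. Cxcl10 was at 195, 229 and 222 FPKM in combination libraries and 419, 243 and 60.6 FPKM in antiPDL1 libraries. The groups overlapped for all of these genes.

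The sensors of polyIC did not pass either. For 15 double-stranded RNA sensing genes 0 passed, with a median of -0.13 that was 0.02 without antiPDL1 replicate 1 and -0.26 without replicate 2. Tlr3 was at 12.1, 5.18 and 9.30 FPKM in combination libraries and 7.93, 17.1 and 19.3 FPKM in antiPDL1 libraries. Ifih1 was at 18.2, 21.5 and 23 FPKM in combination libraries and 27.5, 27.4 and 16.3 FPKM in antiPDL1 libraries, and its 95% interval for the log2 difference was -0.72 to 0.44. MHC class I pathway genes had a median of 0.18 with 0 of 16 passing, which was -0.25 without antiPDL1 replicate 2 and 0.42 without replicate 1. Checkpoint and costimulatory ligands had a median of -0.25 with 0 of 12 passing, which was 0.02 without antiPDL1 replicate 0 and -0.47 without replicate 2. At an unadjusted p under 0.05, 5 of these ligands were lower and 1 higher, against 8.09% and 6.31% of all genes. Inflammatory cytokines had a median of -0.54 with 0 of 15 passing and 6 lower at an unadjusted p under 0.05, against 8.09% of all genes. Il1b, which encodes the pyrogen interleukin-1 beta, was at 98.3, 130 and 210 FPKM in combination libraries and 187, 223 and 160 FPKM in antiPDL1 libraries.

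Cell cycle genes had a median of 0.54, which was 0.14 without antiPDL1 replicate 2. None of the 36 passed and 11 were higher at an unadjusted p under 0.05, against 6.31% of all genes. Mcm6, a subunit of the replicative helicase, was at 138, 114 and 88.2 FPKM in combination libraries and 83.4, 86.4 and 37.3 FPKM in antiPDL1 libraries (limma, adjusted p = 0.276). In polyIC against control 11 of the 36 passed, all higher, against 2.46% of all genes there. The median was 0.41 for both the neutrophil and the monocyte lists, of which 0 of 18 and 0 of 16 genes passed. The monocyte median was -0.03 without antiPDL1 replicate 2, and the neutrophil median 0.20 without that replicate and 0.88 without replicate 1. S100a8, a calcium-binding protein of neutrophils and monocytes, was at 920, 1603 and 2892 FPKM in combination libraries and 947, 2236 and 773 FPKM in antiPDL1 libraries. Ly6c2, a marker of inflammatory monocytes, was at 576, 453 and 652 FPKM in combination libraries and 527, 1189 and 222 FPKM in antiPDL1 libraries. The groups overlapped for both genes. Glycolysis genes had a median of 0.12 with 0 of 15 passing, and of -0.24 without antiPDL1 replicate 2. Chemokines had a median of -0.51 with 0 of 12 passing, which was -0.82 without antiPDL1 replicate 2. Without replicate 0 it was -0.17, with 3 passing, against 331 of all 11978 tested genes. Cxcl13, a B cell attractant chosen after its values were seen, was at 0.937, 0.198 and 0.315 FPKM in combination libraries and 7.23, 17.4 and 59.8 FPKM in antiPDL1 libraries (log2 difference -3.85 ± 0.687; limma, adjusted p = 0.0590). No combination library reached 1 FPKM for Cxcl13, so its value is a description. In the remaining lists 0 members passed, with medians of -0.21 for 13 naive T cell genes, 0.02 for 8 tissue-resident lymphocyte genes, -0.24 for 8 plasma cell markers, -0.65 for 6 mast cell, basophil and eosinophil markers and -0.34 for 5 type 2 lymphocyte genes. Further medians were -1.0 for 10 oncofetal genes, -0.44 for 7 stellate cell markers, -0.40 for 5 erythroid markers, -0.38 for 10 chemokine receptors, -0.17 for 6 Fc receptors, -0.36 for 11 Toll-like receptors and -0.11 for 13 immediate early genes. The tissue-resident and immediate early medians changed sign without antiPDL1 replicate 1, at -0.02 and 0.02, and without replicate 2 the naive T cell, oncofetal and erythroid medians were -0.01, -0.55 and -0.11. Type 17 T cell and platelet lists had fewer than 5 tested members, at medians of -0.67 and -0.44.

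**Figure D5:**
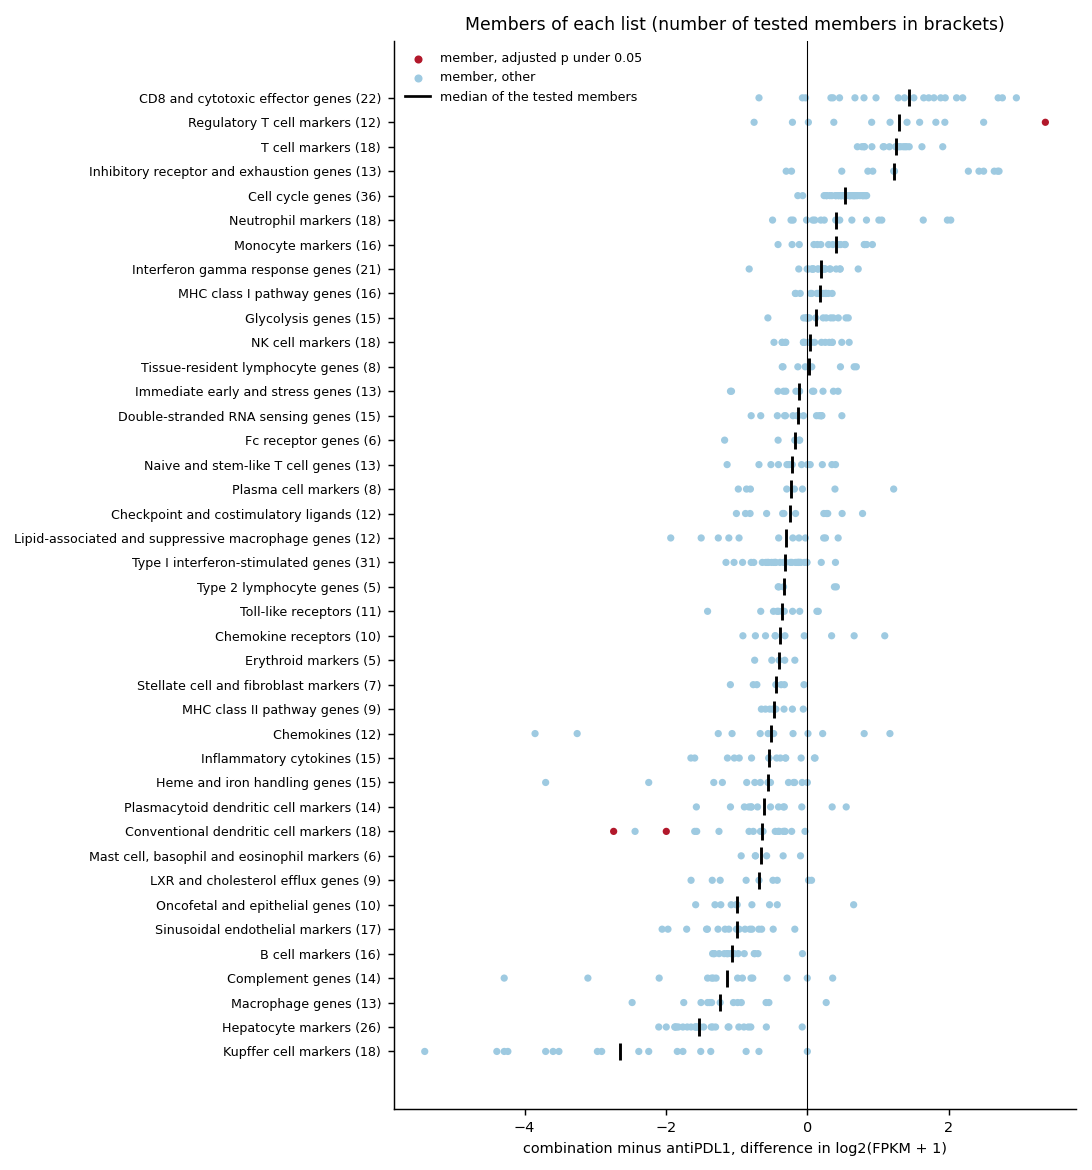
Difference in log2(FPKM + 1) of combination minus antiPDL1 (horizontal axis) for the tested members of each list with at least 5 of them (vertical axis, number in brackets); red points passed the adjusted threshold, blue points did not, and black ticks are list medians. Cytotoxic, regulatory T cell, T cell and inhibitory receptor lists have medians of 1.24 to 1.44, Kupffer cell markers one of -2.65, and Il10, Ccl17 and Mgl2 are the members that passed.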

How the data were processed

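Poly(A) RNA of CD45-positive liver cells was sequenced from stranded libraries, per the labels' protocols. The authors made 1 deposited value per gene and library with Cuffdiff on mm9, per the submitters' processing notes. The unit was taken to be FPKM from the deposited values, since the header names none. The version and scaling of Cuffdiff, the aligner and the annotation are not stated there. Of 24319 entries, 5460 were 0 in every library and 22 (13 small RNA genes and 9 others) were left out as described. Symbols matched current mouse symbols for 23525 entries, older ones for 684 and none for 83, and 27 had become dates in a spreadsheet.

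The 11978 genes that reached 1 FPKM in 3 or more libraries were tested with limma 3.58.1 in R 4.3.3 (limma-trend, two-sided) on log2(FPKM + 1), in 1 model with a mean per group and no other term. The same fit gave polyIC against control and the interaction. P-values were adjusted by Benjamini-Hochberg over all tested genes, with a threshold of 0.05. The fit was tested on simulated data. Relative depth came from ratios of low values of 2158 genes in 60 of 66 library pairs; with no counts, the replicate spread alone gives the precision. Tables were made with Python 3.11.15, numpy 2.4.6 and pandas 2.3.3, and figures with matplotlib 3.10.9.

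Named genes are the 12 largest rises and falls that passed without overlap (predicted and small RNA genes left out), up to 4 passing members of each of 42 lists or else the 2 highest, a fixed panel, and the 5 smallest adjusted p-values of the interaction. A gene named outside this rule was chosen after its values were seen. Members, lists and tests were chosen with earlier results of these data known. Alternatives were another pseudocount, other filters and scalings, fits of fewer libraries, a replicate block and array quality weights. The replicate numbers were not used as pairs. Values of 2 named genes are not reported here.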

Additional observations from a re-analysis of the deposited data

Results flagged for a closer look

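The interaction of polyIC with the antibody was past the threshold in limma for 2 genes. Mir760, a microRNA gene, was listed at 0 in the combination, antiPDL1 and polyIC libraries and at 7.86, 10.9 and 4.21 FPKM in control libraries, an interaction of 3.04 (limma, adjusted p = 0.0207). It stayed in the tests because 1 control library was below 5 FPKM. It reached the filter on low values through the control group alone, where it is high, so its value is a description. Whether these zeros are failed estimates was not tested. Orm2, an acute phase protein of the liver, was at 1.12, 1.71 and 1.25 FPKM in combination libraries and 1.35, 0.796 and 0.738 FPKM in antiPDL1 libraries. It was at 11.2, 9.19 and 6.16 FPKM in polyIC libraries and 0.679, 0.703 and 0.329 FPKM in control libraries, an interaction of -2.35 (limma, adjusted p = 0.0445). Hepatocyte markers had a median interaction of -1.40, with 24 of 26 below 0, and summed levels of 321 to 555 FPKM in combination libraries, 646 to 3286 FPKM in antiPDL1 libraries, 2705 to 3571 FPKM in polyIC libraries and 2069 to 6808 FPKM in control libraries; their part in the value of Orm2 was not tested. Neither gene was among the 15 that passed in combination against antiPDL1.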

How the results depend on the processing

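Against 15 genes (12 higher, 3 lower) in combination against antiPDL1, the count was 31 with no filter on low values (26 higher, 5 lower), 6 with a mean of at least 5 FPKM, 77 with small RNA genes left out (60 higher, 17 lower), 822 with array quality weights (347 higher, 475 lower), and 0 with only the groups compared in the fit (limma, 1779 at an unadjusted p under 0.05). With a pseudocount of 0.1, 5 were higher and 6 lower. Leaving out pairs of libraries gave 53 without antiPDL1 replicates 0 and 2 (48 higher, 5 lower) and 87 without control replicate 2 and antiPDL1 replicate 2 (25 higher, 62 lower). Leaving out each library gave 0 to 331. The 435 genes of polyIC against control became 209 with the mean filter, 794 with quantile normalization, 691 without small RNA genes, 3437 with array weights, 895 and 2898 without those pairs, and 42 to 1871 with each library left out. The 2 genes of the interaction became 0 with a pseudocount of 0.1, the mean filter or the first pair left out, 1 without small RNA genes, 12 with array weights or with the genes listed at 0 kept, 5 without the second pair, and 0 to 5 with each library left out. The cause was not tested. With the replicate number as a block, 1, 428 and 3 genes passed in the 3 comparisons. Same-numbered libraries deviated together with r of -0.119, 0.0158 and 0.147 in combination and antiPDL1 and -0.116, -0.0279 and 0.0194 in polyIC and control, and 6 of 12 libraries correlated best with their own number, so the numbers were not taken as pairs. Among 2720 values of named genes under the 24 settings, 149 lost the threshold, 61 gained it and 0 changed sign after being called. Only the 15 genes that passed could lose it, and most of the 2720 values belong to genes that had not passed. Of 1008 list medians, 32 changed sign, in 13 lists. Without counts, depth limits the low genes most: 4 of the 15 averaged under 5 FPKM in both groups.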

Other observations

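Other genes of secreted factors lay just short of the threshold, chosen after their values were seen. Calcb, a calcitonin gene-related peptide gene, was at 7.14, 14.6 and 6.59 FPKM in combination libraries and 0.704, 0.0699 and 0.218 FPKM in antiPDL1 libraries (limma, adjusted p = 0.0717). No antiPDL1 library reached 1 FPKM for Calcb, so its value is a description. Ccl3, a chemokine of activated T cells and macrophages, was at 439, 427 and 428 FPKM in combination libraries and 207, 31.7 and 24.1 FPKM in antiPDL1 libraries (limma, adjusted p = 0.0848). Il12b, a subunit of interleukin-12 and interleukin-23, was at 1.24, 0.464 and 2.21 FPKM in combination libraries and 6.55, 4.37 and 6.15 FPKM in antiPDL1 libraries (limma, adjusted p = 0.0721). The groups did not overlap for any of the 3 genes, a condition that 8.29% of all tested genes met upward and 12.1% downward. Since the 3 were picked by their values, this is a description.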
